A study of Mus musculus with 50 samples.

Results

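The polycomb repressive complex PRC1.6 was followed here through 5 of its subunit genes, Pcgf6, L3mbtl2, Mga, Max and E2f6. They were chosen by name, with earlier results of these data known. They are 5 of the 24412 gene rows in the first of the authors' TPM tables and of the 24413 in the second, and all 5 were measured in all 50 libraries and entered every test. TPM gives the RNA of a gene per transcript length and relative to all transcripts of the library. The cells were mouse embryonic stem (ES) cells of strain TT2, the RNA was polyadenylated, and libraries were stranded.

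The first table held 2 libraries for each of 9 genotypes: Setdb1-KO, Suv39h1/2-DKO, Suv39h1/2;Setdb1-TKO, G9a-KO, G9a;Setdb1-DKO, G9a;Suv39h1/2-TKO, G9a;Suv39h1/2;Setdb1-QKO (called QKO below), the same QKO with Dux also deleted (Dux-KO QKO), and control. Setdb1, G9a and Suv39h1/2 are enzymes that methylate histone H3 on lysine 9 (H3K9), a mark of silent chromatin. The second table held the first 7 genotypes and the control again, all carrying a Tet-on-Dux transgene on a Dux-KO background, with doxycycline and without, in 2 libraries for each of 16 groups. The dose label was 0.2 in the control and Setdb1-KO lines and 1 in the other 6, with no unit given, and doses were never compared with each other. Dux encodes a transcription factor of the early embryo that switches on genes of the 2-cell stage. Setdb1 loss was compared within a named line, between libraries titled OHT (lost) and NT (present), so those titles and the loss cannot be told apart. G9a and Suv39h1/2 loss, and Dux removal, were compared between lines, so line differences and the loss cannot be told apart. Whether the 2 libraries of a group came from separate cultures is not stated, so p-values measure the spread between these libraries.

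PRC1.6 is a variant polycomb complex that binds promoters of germline genes in ES cells and represses them. PCGF6 is the subunit that defines the complex, and L3MBTL2 is a reader protein with MBT domains. MGA carries a T-box and a basic helix-loop-helix domain and dimerises with MAX, and that pair binds the E-box CACGTG. E2F6 with a DP protein binds E2F sites such as TTCCCGC and lacks the activation domain of other E2F factors. MAX also pairs with MYC, MYCN and the MXD, MNT and MXI1 proteins, so its RNA serves more than this complex.

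In GENCODE M21 on GRCm38, Pcgf6 (ENSMUSG00000025050.8) lies on the minus strand of chromosome 19, chr19:47033617-47050906, and L3mbtl2 (ENSMUSG00000022394.14) on the plus strand at chr15:81663889-81688315. Mga (ENSMUSG00000033943.15) lies on the plus strand at chr2:119897228-119969581, with a longest transcript of 13931 nt against 1942 to 4645 nt for the other members. Max (ENSMUSG00000059436.13) lies on the minus strand at chr12:76937269-76962201 and E2f6 (ENSMUSG00000057469.8) on the plus strand at chr12:16810963-16839742. The opposite-strand gene Chadl shares 1023 exon bases with L3mbtl2. The sources used here do not say whether counting used strand, so reads of the 2 genes in those bases cannot be told apart.

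Promoters were read to show which of the 5 genes carry the letters that their own proteins bind, beside promoters of germline genes that such complexes bind. The windows run from 250 bases before the annotated start to 30 bases after it, on the gene's own strand, from the RefSeq promoter table for GRCm38.p6. Capitals mark CACGTG or TTCCCGC. The Pcgf6 (chr19:47050877-47051156, minus strand) and E2f6 (chr12:16810715-16810994, plus strand) windows are shown because these 2 members passed for the G9a by Setdb1 interaction in the first table, though not in the second, and neither window holds the searched letters. The Max window (chr12:76962219-76962498, minus strand) is shown as the one member with an E-box, which spans the annotated start.
Pcgf6: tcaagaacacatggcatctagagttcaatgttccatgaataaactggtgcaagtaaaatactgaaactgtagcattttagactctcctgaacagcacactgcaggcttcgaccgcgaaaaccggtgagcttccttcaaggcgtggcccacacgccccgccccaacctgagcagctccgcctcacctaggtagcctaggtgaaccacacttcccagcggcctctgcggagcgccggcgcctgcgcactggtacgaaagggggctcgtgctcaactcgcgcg
E2f6: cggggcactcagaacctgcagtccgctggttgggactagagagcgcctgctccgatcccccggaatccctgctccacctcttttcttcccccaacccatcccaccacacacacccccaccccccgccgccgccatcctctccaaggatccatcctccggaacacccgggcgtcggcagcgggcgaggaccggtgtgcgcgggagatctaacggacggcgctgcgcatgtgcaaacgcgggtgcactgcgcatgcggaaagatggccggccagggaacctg
Max: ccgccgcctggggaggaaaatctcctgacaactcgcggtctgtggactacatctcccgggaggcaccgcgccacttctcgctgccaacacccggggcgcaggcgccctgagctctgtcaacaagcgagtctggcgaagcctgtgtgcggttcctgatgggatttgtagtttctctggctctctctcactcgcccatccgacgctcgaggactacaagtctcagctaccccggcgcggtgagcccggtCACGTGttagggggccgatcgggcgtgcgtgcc
The germline genes Slc25a31 (chr3:40708621-40708900, plus strand), Stk31 (chr6:49395289-49395568, plus strand) and Rpl10l (chr12:66284372-66284651, minus strand) are shown because they hold one motif or both and were among the most changed germline genes in QKO cells.
Slc25a31: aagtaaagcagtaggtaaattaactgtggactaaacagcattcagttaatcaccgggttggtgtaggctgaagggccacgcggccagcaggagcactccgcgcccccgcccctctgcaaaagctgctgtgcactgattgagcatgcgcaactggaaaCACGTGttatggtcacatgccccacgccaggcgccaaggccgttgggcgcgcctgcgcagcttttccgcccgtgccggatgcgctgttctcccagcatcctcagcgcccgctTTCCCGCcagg
Stk31: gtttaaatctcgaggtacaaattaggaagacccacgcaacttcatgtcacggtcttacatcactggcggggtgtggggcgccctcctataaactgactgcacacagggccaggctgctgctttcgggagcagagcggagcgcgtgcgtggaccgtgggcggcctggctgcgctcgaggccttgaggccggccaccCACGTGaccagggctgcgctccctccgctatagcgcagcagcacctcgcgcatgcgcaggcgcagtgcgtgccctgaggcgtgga
Rpl10l: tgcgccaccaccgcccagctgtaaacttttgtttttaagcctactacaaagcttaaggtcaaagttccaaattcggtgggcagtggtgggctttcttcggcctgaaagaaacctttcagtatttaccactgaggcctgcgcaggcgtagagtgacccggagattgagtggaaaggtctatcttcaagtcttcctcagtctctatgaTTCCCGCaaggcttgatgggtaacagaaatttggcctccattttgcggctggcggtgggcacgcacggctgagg
The letters were searched on both strands in windows of 300 bases, 250 before to 50 after the start, and CACGTG and TTCCCGC do not overlap each other. CACGTG was in a window of 8.09% of 27025 genes, of 14 of 27 listed germline genes (51.9%) and of 1 of 5 members, Max. TTCCCGC was in a window of 5.29% of all genes, of 10 of the 27 germline genes (37.0%) and of 0 of 5 members. A match describes the letters of a window and is not a bound site.

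All 5 members were expressed in every library. In the first table Max had the highest level, with 88.0 to 141 TPM over the 18 libraries, followed by L3mbtl2 with 65.4 to 91.1 TPM, Pcgf6 with 36.3 to 76.7 TPM, Mga with 20.9 to 46.4 TPM and E2f6 with 17.9 to 29.9 TPM. Neighbouring ranges in that order overlapped. By mean level they stood above 57.9% (E2f6) to 89.2% (Max) of the genes of that table. In the 32 libraries of the second table the order was the same, with 44.4 to 122 TPM for Max, 37.0 to 89.2 TPM for L3mbtl2, 37.6 to 66.7 TPM for Pcgf6, 7.09 to 31.4 TPM for Mga and 11.2 to 27.3 TPM for E2f6, except that Mga and E2f6 changed places by their mean (15.9 and 17.4 TPM). The tables were normalised separately, so their levels were not tested against each other. Among the 1386 genes of nearest level in the first table, the group means of Pcgf6 spread more than those of 80.0% of genes, whereas those of L3mbtl2 and Mga spread more than those of 6.57% and 7.58%. Pcgf6 was thus the member that varied most across genotypes there, and in the second table its spread exceeded that of 16.9% of 1382 genes of like level.

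**Figure D1:**
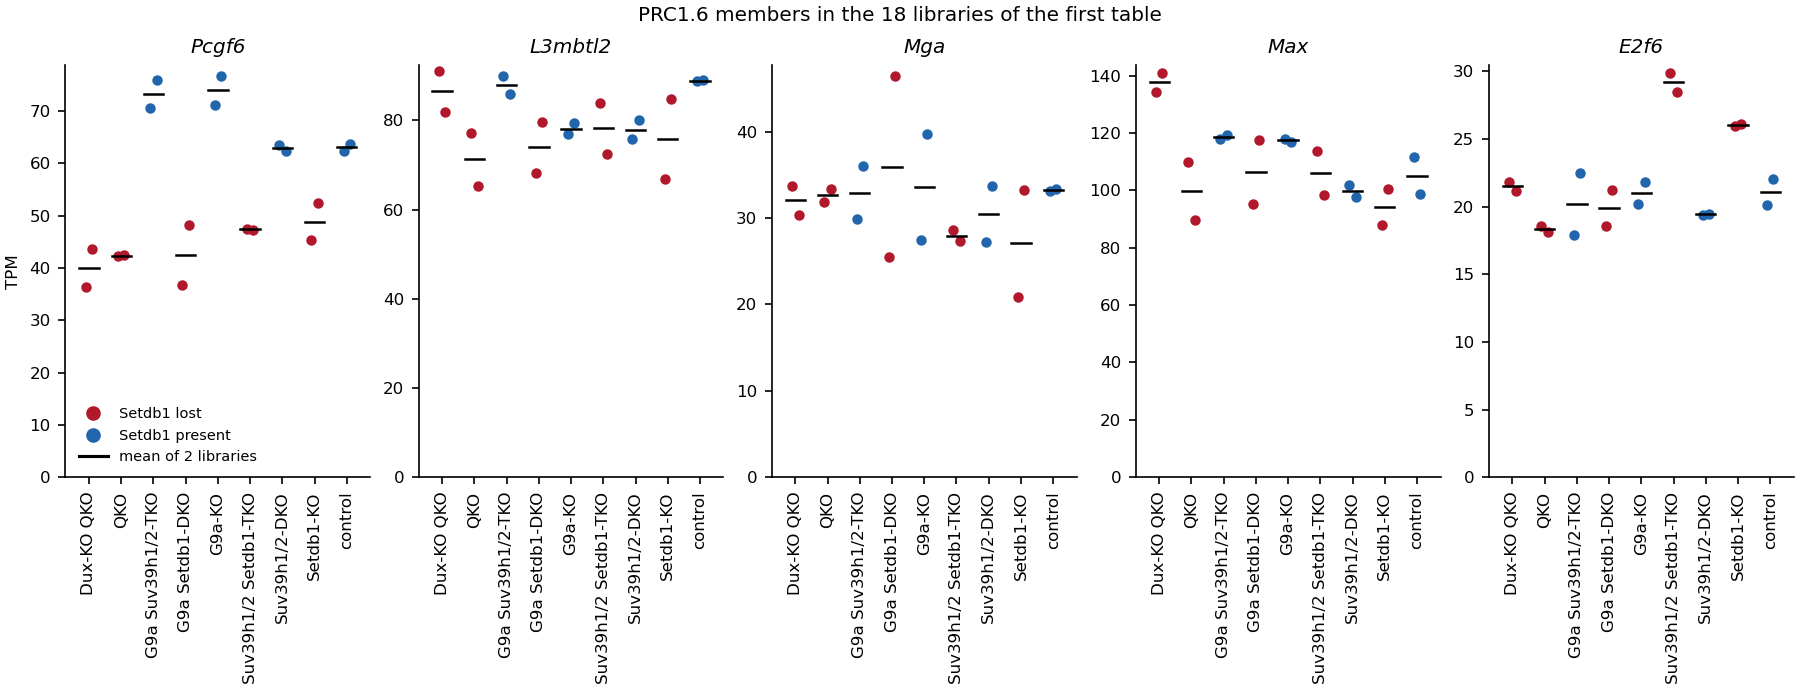
TPM of the 5 members in each library of the first table. Each point is 1 library and each horizontal line a group mean over 2 libraries; the Pcgf6 points of the 8 libraries without Setdb1 and with Dux (36.8 to 52.3 TPM) all lie below those of the 8 libraries with Setdb1 (62.3 to 76.7 TPM).

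As to the state of the libraries, naive pluripotency markers (8 genes, such as Pou5f1 and Nanog) summed to 3283 to 4687 TPM in the first table and all 8 reached 1 TPM in every library. Fibroblast markers, which would mark feeder cells, summed to 2.48 to 10.8 TPM with 1 or 2 of 8 at 1 TPM. Trophoblast markers summed to 34.5 to 156 TPM, and the 14 primitive endoderm markers summed to 285 to 1748 TPM, with G9a-KO (1748 and 1473 TPM) among the highest. Setdb1 RNA was 19.8 and 26.0 TPM in Setdb1-KO, against 48.8 and 53.2 TPM in control, and Ehmt2, the gene of G9a, was 15.6 and 14.6 TPM in G9a-KO, against 83.6 and 91.1 TPM in control. Among the 32 libraries of the second table, 6 stood apart by the mean log2 level of 14 Snhg RNAs (4.46 to 4.94, against at most 3.49 in the other 26). The high class held 1 library of each of 6 groups: control without doxycycline, Setdb1-KO and G9a;Setdb1-DKO each without and with it, and G9a-KO with it. The median of every member was higher in those 6 libraries than in the other 26, as with Mga (24.96 against 13.3 TPM), L3mbtl2 (72.3 against 53.2 TPM) and Pcgf6 (57.8 against 46.5 TPM). None of the 6 groups lacks Suv39h1/2, so genotype and Snhg class cannot be told apart in these medians. Within a group, the library of high Snhg level was the higher one for Pcgf6 and Max in all 6 groups. For L3mbtl2, Mga and E2f6 it was the higher one in all but 1 group each. The exceptions were L3mbtl2 in G9a;Setdb1-DKO with doxycycline, Mga in control without it and E2f6 in G9a-KO with it. The cause of these differences between replicates was not tested. In bulk RNA, fewer cells of a type and less RNA per cell cannot be told apart.

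Differences between groups were fitted with limma on log2(TPM+1) over all genes of a table, and a gene passed at a Benjamini-Hochberg adjusted p below 0.05. Against the first table's control, members passed in 6 of 35 comparisons (5 genes in 7 genotypes), 1 higher and 5 lower, where 33% of all gene comparisons passed and 17.7% were lower. The share of all genes that passed ran from 2.18% in Suv39h1/2-DKO to 53.3% in QKO. No member reached a 2-fold change, the log2 difference of 1 used for a call, which 8.53% of all gene comparisons did. The 7 comparisons share the control libraries. Whether libraries of 2 groups overlap is given below as a description. The share of all genes that separate in this way was counted for the averaged losses alone.

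Pcgf6 carried most of the passing differences, and they were all in genotypes without Setdb1. It had 45.3 and 52.3 TPM in Setdb1-KO, 47.5 and 47.3 TPM in Suv39h1/2;Setdb1-TKO, 36.8 and 48.2 TPM in G9a;Setdb1-DKO and 42.3 and 42.4 TPM in QKO, against 62.4 and 63.8 TPM in control. Every library of these 4 genotypes lay below both control libraries. The log2 differences were -0.37 in Setdb1-KO (adjusted p = 0.0353), -0.41 in Suv39h1/2;Setdb1-TKO (0.0230), -0.57 in G9a;Setdb1-DKO (0.00162) and -0.56 in QKO (0.00161), each with an SE of 0.13. Of all genes 34.1% passed in Setdb1-KO, 31.5% in Suv39h1/2;Setdb1-TKO and 48% in G9a;Setdb1-DKO. The Setdb1-KO difference was -0.22 with median-ratio scaling (adjusted p = 0.0894), beside a median of -0.12 over all genes in Setdb1-KO before that scaling, and was lost in 3 of 4 fits that left out 1 library (adjusted p up to 0.239). The Suv39h1/2;Setdb1-TKO one missed the threshold when any 1 of its 4 libraries was left out (adjusted p 0.0815 to 0.107). With Setdb1 intact, Pcgf6 had 71.2 and 76.7 TPM in G9a-KO, 70.6 and 75.9 TPM in G9a;Suv39h1/2-TKO and 63.4 and 62.3 TPM in Suv39h1/2-DKO. The G9a-KO and G9a;Suv39h1/2-TKO libraries lay above control without passing (log2 0.22 and 0.21, adjusted p = 0.186 and 0.245).

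Averaged over the 4 backgrounds, Pcgf6 fell on Setdb1 loss, with 45.3 ± 4.74 TPM in the 8 libraries without Setdb1 and 68.3 ± 6.06 TPM in the 8 with it (SD). The difference was -0.59 on the log2 scale (SE 0.06, limma adjusted p = 1.78e-06), and the 2 sets of libraries did not overlap, as held in the lower direction for 4.9% of all genes. In this comparison 60.5% of all genes passed, 24.8% higher and 35.8% lower. The 10 trophoblast markers also separated the same libraries, summing to 60.8 to 85.8 TPM without Setdb1 and 34.5 to 49.6 TPM with it, and their part in the Pcgf6 difference was not tested. The Pcgf6 difference stayed between -0.63 and -0.54 whichever of the 16 libraries was left out. Members passed in 4 of the 15 averaged comparisons of that table (5 genes, 3 enzymes), where 44.1% of all gene comparisons passed. The fall of Pcgf6 was larger in cells that also lacked G9a. Without G9a, Pcgf6 had 42.4 ± 4.67 TPM on Setdb1 loss and 73.6 ± 3.16 TPM with Setdb1, and with G9a present it had 48.1 ± 2.98 TPM on Setdb1 loss and 63.0 ± 0.737 TPM with Setdb1 (SD, n = 4). The difference of these differences was -0.40 (SE 0.13, limma adjusted p = 0.0330), and it missed the threshold in 12 of 16 fits that left out 1 library (adjusted p up to 0.0780). In the cells without G9a, the 14 primitive endoderm markers were lower on Setdb1 loss as well. They summed to 750 and 987 TPM in G9a;Setdb1-DKO and 604 and 464 TPM in QKO, against 1748 and 1473 TPM in G9a-KO and 1700.1 and 1306 TPM in G9a;Suv39h1/2-TKO. Their part in the result was not tested.

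In the second table, where endogenous Dux was deleted throughout, Pcgf6 did not pass. Without doxycycline it had 41.1 and 57.1 TPM in Setdb1-KO, 47.6 and 47.9 TPM in Suv39h1/2;Setdb1-TKO, 38.6 and 55.2 TPM in G9a;Setdb1-DKO and 51.8 and 45.7 TPM in QKO, against 58.5 and 47.2 TPM in control. These overlap the control libraries, which themselves differ by more than 10 TPM. Averaged over backgrounds it had 48.1 ± 6.43 TPM without Setdb1 and 54.3 ± 5.06 TPM with it, a log2 difference of -0.18 (SD, n = 8; limma adjusted p = 0.206, 95% confidence interval -0.38 to 0.03). With median-ratio scaling it was -0.20 and passed (adjusted p = 0.0359). The interaction with G9a was -0.14 and did not pass (adjusted p = 0.949). The difference between the tables was not tested.

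**Figure D2:**
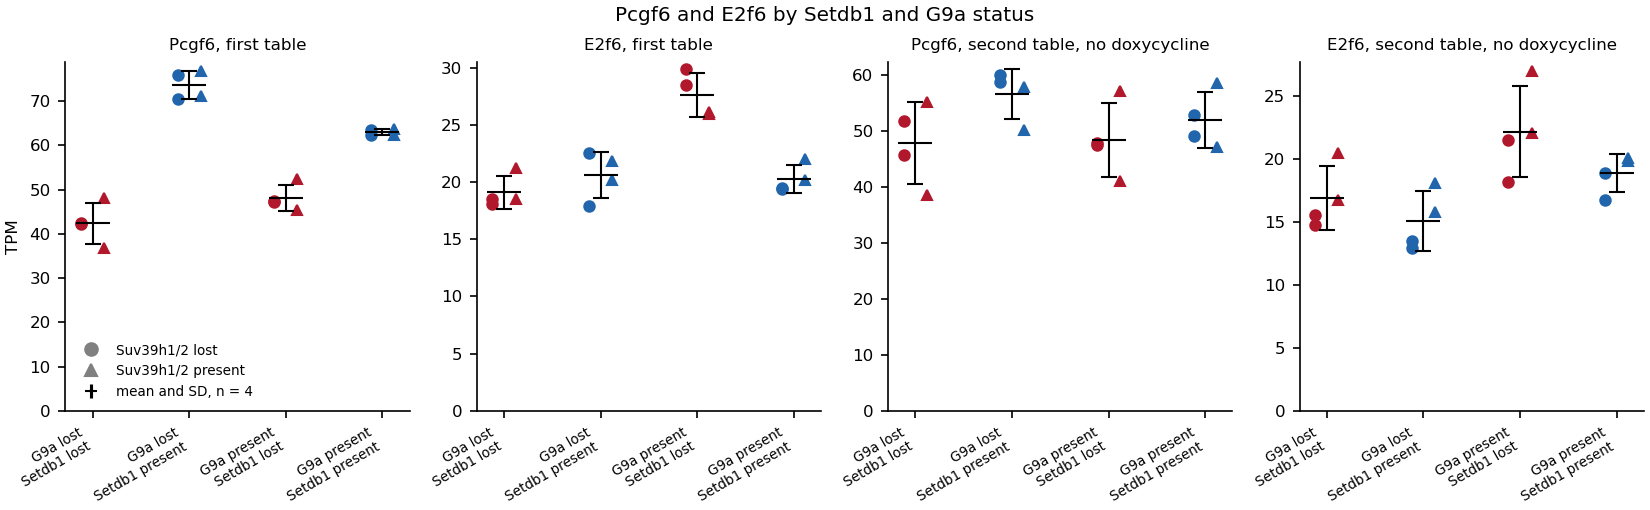
TPM of Pcgf6 and E2f6 in libraries without and with Setdb1, split by G9a, in both tables. Points are libraries, horizontal lines means of 4 and whiskers their SD; in the first table E2f6 is higher without Setdb1 where G9a is present (27.6 against 20.3 TPM) and not where G9a is lost (19.1 against 20.6 TPM).

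E2f6 differed in the other direction, and in cells that keep G9a. It had 25.9 and 26.1 TPM in Setdb1-KO and 29.9 and 28.5 TPM in Suv39h1/2;Setdb1-TKO, against 20.2 and 22.0 TPM in control. All 4 libraries lay above control. The rise passed in Suv39h1/2;Setdb1-TKO (log2 0.45, SE 0.12, limma adjusted p = 0.00814) and not in Setdb1-KO (0.29, adjusted p = 0.0631). The passing call was lost in 2 of 4 fits that left out 1 library (adjusted p up to 0.0810). In G9a-deficient cells E2f6 was not higher without Setdb1, with 18.5 and 21.2 TPM in G9a;Setdb1-DKO and 18.5 and 18.1 TPM in QKO, beside 20.2 and 21.8 TPM in G9a-KO and 17.9 and 22.5 TPM in G9a;Suv39h1/2-TKO. These groups overlap. With G9a present E2f6 had 27.6 ± 1.896 TPM without Setdb1 and 20.3 ± 1.22 TPM with it, and with G9a lost it had 19.1 ± 1.43 TPM without Setdb1 and 20.6 ± 2.05 TPM with it (SD, n = 4). The difference of these differences was -0.53 (SE 0.12, limma adjusted p = 0.00452) and it passed in all 16 fits that left out 1 library. Members passed in 2 of 15 interactions of enzyme pairs, Pcgf6 and E2f6 for G9a by Setdb1, where 11.6% of all gene interactions passed and 21.5% did for G9a by Setdb1.

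Averaged over backgrounds, E2f6 was lower without G9a in both tables. In the first it had 19.9 TPM without G9a (lowest 17.9, median 19.4, highest 22.5) and 23.9 TPM with G9a (lowest 19.4, median 23.98, highest 29.9), a log2 difference of -0.24 (adjusted p = 0.00236). In the second, without doxycycline, it had 15.98 TPM without G9a (lowest 12.9, median 15.7, highest 20.5) and 20.5 TPM with it (lowest 16.7, median 19.9, highest 27.0), a log2 difference of -0.34 (adjusted p = 0.00122). The ranges overlap in both tables, and lines rather than treatments of a line are compared. Of all genes 23.8% passed lower in the first table and 24.1% in the second. Primitive endoderm markers summed to 464 to 1748 TPM without G9a and 285 to 667 TPM with it in the first table. In the second, without doxycycline, they summed to 310 to 1221 TPM without G9a and 368 to 796 TPM with it. Their part in the E2f6 difference was not tested. In the first table E2f6 was lower without G9a in cells without Setdb1 (19.1 against 27.6 TPM). With Setdb1 present it was not (20.6 against 20.3 TPM). In the second it was lower in both Setdb1 states, with 16.9 against 22.2 TPM without Setdb1 and 15.1 against 18.9 TPM with it. The lowest level without doxycycline was in G9a;Suv39h1/2-TKO, with 13.5 and 12.9 TPM, against 20.1 and 19.8 TPM in control (log2 -0.56, limma adjusted p = 0.0156). That call was lost whichever of its 4 libraries was left out (adjusted p 0.0555 to 0.0867). On Setdb1 loss the averaged E2f6 difference was 0.16 in the first table (23.4 against 20.4 TPM, adjusted p = 0.0244, lost in 4 of 16 fits with 1 library left out) and 0.18 in the second (adjusted p = 0.0900). The interaction seen in the first table was -0.06 in the second (adjusted p = 0.971), where members passed in 0 of 15 interactions and 1.9% of all gene interactions did.

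Of the 7 genotypes against control in the first table, L3mbtl2 passed in QKO alone. It had 77.3 and 65.4 TPM in QKO, against 88.8 and 89.1 TPM in control, both QKO libraries being lower (log2 -0.32, limma adjusted p = 0.0463), a call lost in 3 of 4 fits that left out 1 library (adjusted p up to 0.308). On averaged Setdb1 loss it had 74.8 TPM, against 83.2 TPM with Setdb1 (-0.16, adjusted p = 0.0466), and this call was lost with median-ratio scaling (-0.07, adjusted p = 0.134) and in 12 of 16 fits that left out 1 library. Max, the shared dimer partner, passed in 0 of 7 genotypes there, with 110.0 and 89.7 TPM in QKO and 112 and 98.6 TPM in control.

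In the second table without doxycycline, members passed in 3 of 35 comparisons, where 19.3% of all gene comparisons passed. None was called, as 7.05% of all gene comparisons were. L3mbtl2 had 73.5 and 89.2 TPM in G9a;Setdb1-DKO, against 51.5 and 47.1 TPM in control (log2 0.71, limma adjusted p = 0.00389). Max had 112 and 122 TPM in G9a;Setdb1-DKO, against 89.4 and 68.5 TPM in control (0.57, adjusted p = 0.0297). With 1 of the 4 libraries left out, the Max call was lost in 3 of 4 fits (adjusted p up to 0.264) and that of L3mbtl2 in 1 of 4 (0.0526). For both genes the knockout libraries lay above the control ones, and 1 library of either group belongs to the high Snhg class. Of all genes 33.1% passed in that genotype. The third passing comparison was E2f6 in G9a;Suv39h1/2-TKO, given above, where 19.4% of all genes passed.

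Averaged over backgrounds in the second table, members passed in 7 of 15 comparisons, 3 higher and 4 lower, where 34.3% of all gene comparisons passed and 18.2% were lower. L3mbtl2 rose on G9a loss (65.9 against 51.6 TPM, log2 0.37, limma adjusted p = 0.00166) and on Setdb1 loss (64.6 against 52.9 TPM, 0.26, adjusted p = 0.0277), and fell on Suv39h1/2 loss (52.5 against 65.1 TPM, -0.30, adjusted p = 0.0146). In the first table L3mbtl2 had passed in the opposite direction on Setdb1 loss (-0.16, limma adjusted p = 0.0466). No common direction is therefore given for L3mbtl2 on Setdb1 loss, and the difference between the tables was not tested. Max rose on G9a loss (94.5 against 73.4 TPM, 0.37, adjusted p = 0.00362) and fell on Suv39h1/2 loss (75.8 against 92.1 TPM, -0.28, adjusted p = 0.0375). E2f6 fell on Suv39h1/2 loss (16.5 against 20.0 TPM, -0.26, adjusted p = 0.0166). The libraries with and without an enzyme overlapped for every one of these. Without the libraries of high Snhg level, the rise of L3mbtl2 on Setdb1 loss (0.19, adjusted p = 0.104) and the fall of Max on Suv39h1/2 loss (-0.15, adjusted p = 0.251) no longer passed. With 1 library left out, the first of these was lost in 7 of 16 fits (adjusted p up to 0.0906) and the second in 10 of 16 (up to 0.120).

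**Figure D3:**
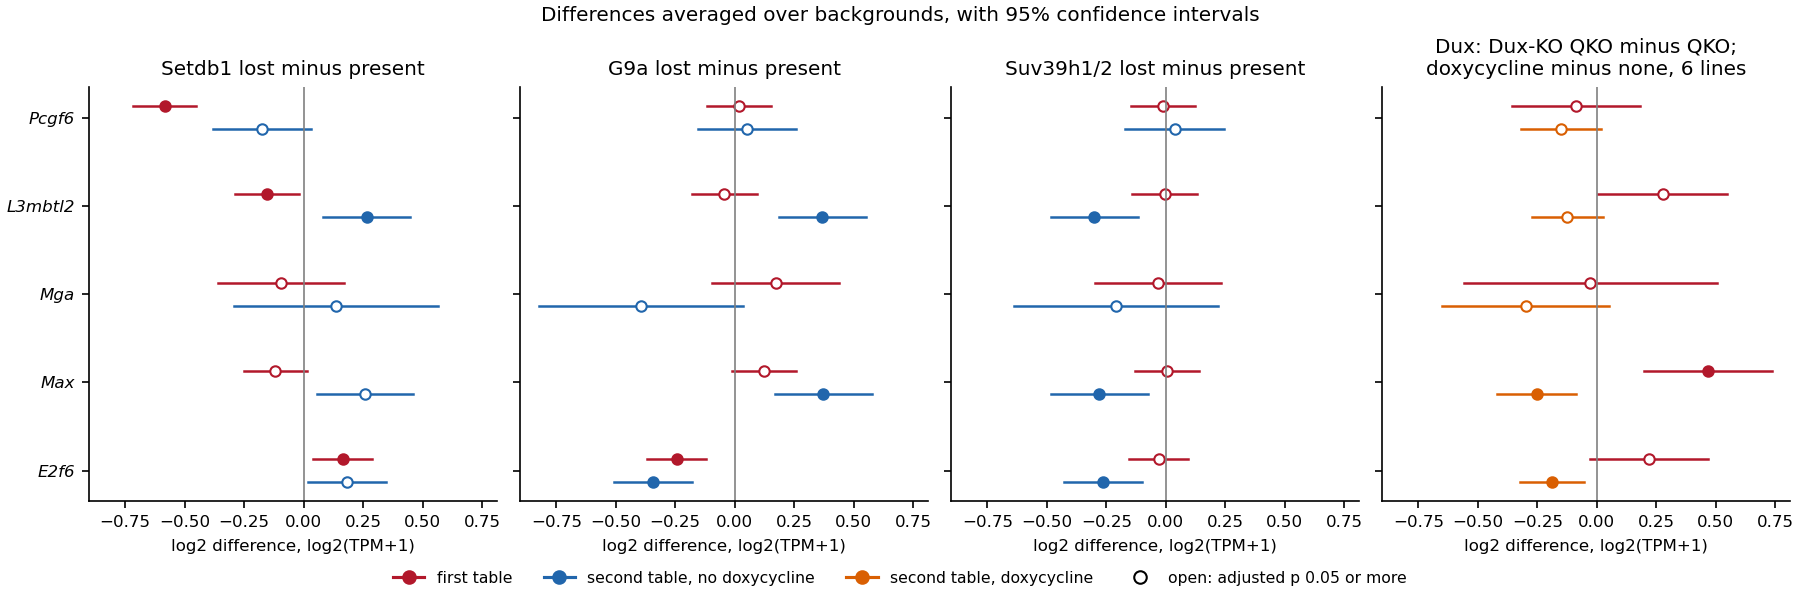
Log2 differences of the 5 members with 95% confidence intervals for averaged loss of Setdb1, G9a and Suv39h1/2 in both tables, for Dux removal from QKO cells, and for doxycycline averaged over 6 lines. Filled points passed at an adjusted p below 0.05; the Pcgf6 difference on Setdb1 loss in the first table (-0.59) is the largest of those that passed.

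Mga, the largest subunit gene, passed in none of the comparisons. Its averaged difference on G9a loss was 0.17 in the first table (adjusted p = 0.257) and -0.39 in the second (adjusted p = 0.126). The widest difference against control was in G9a-KO of the second table, with 12.7 and 10.8 TPM, against 21.8 and 22.2 TPM in control (log2 -0.86, SE 0.41, limma adjusted p = 0.143). Both knockout libraries were lower there, and the 95% confidence interval ran from -1.72 to -0.00. Replicates of Mga differed more than those of the other members. The ratio of the higher to the lower library of a group had a median of 1.204 in the first table and 1.37 in the second, and it was largest in G9a;Setdb1-DKO of the first table (25.5 and 46.4 TPM) and in Setdb1-KO with doxycycline of the second (13.01 and 31.4 TPM). It passed 1.5 in 2 of 9 and 7 of 16 groups, whereas among the other members 1 group did, for Pcgf6.

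Mga moved between replicates together with other genes of long transcripts. Over genes with a transcript of at least 10000 nt (289 in the first table, 276 in the second), the library with more Mga also had the higher mean log2 level in 8 of 9 and 14 of 16 groups. Replicate 2 was the library with more Mga in 7 of 9 and 14 of 16 groups. Mga was left out of these genes and their mean, and read coverage along transcripts and RNA integrity were not analysed here. With that mean as a covariate, a choice made after seeing the data, the averaged G9a difference of Mga in the first table became -0.28 (adjusted p = 0.00124), the opposite sign of the uncorrected value. No direction is therefore given for Mga on G9a loss.

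**Figure D4:**
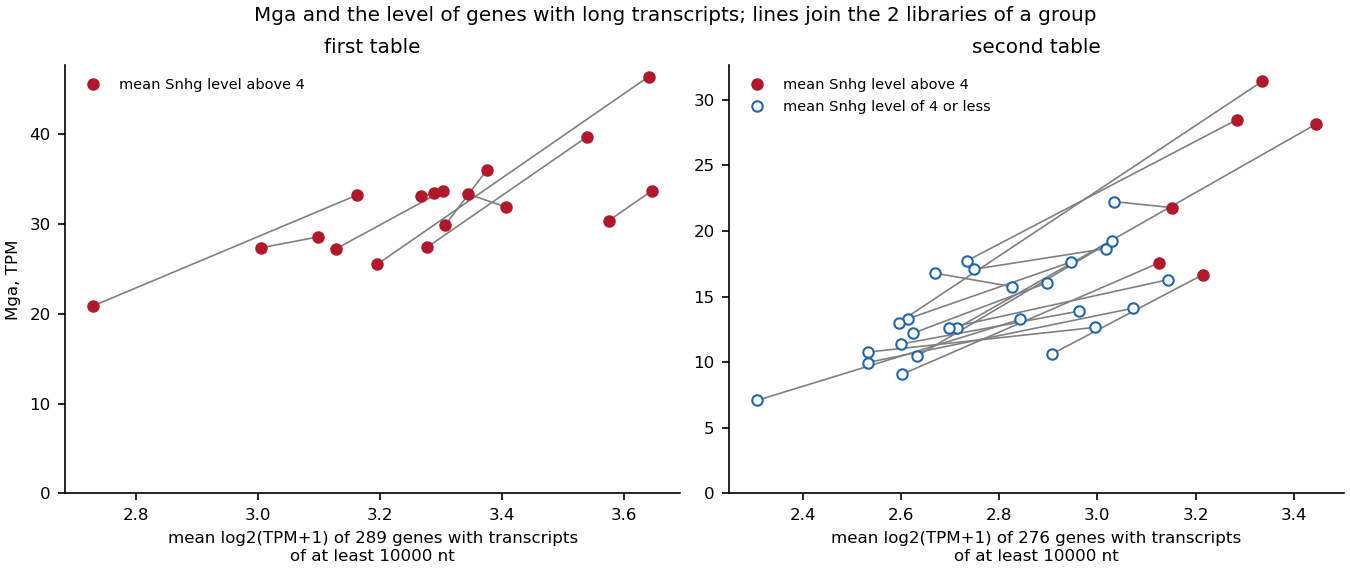
Mga TPM against the mean log2(TPM+1) of genes with transcripts of at least 10000 nt, 1 point for each library in both tables, with a line joining the 2 libraries of a group. In 8 of 9 and 14 of 16 groups the line slopes upward.

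Removal of Dux from QKO cells was followed in the first table by 1 passing difference among the 5 members, where 41.5% of all genes passed. Max had 134 and 141 TPM in Dux-KO QKO, against 110.0 and 89.7 TPM in QKO, so that both Dux-KO libraries were above both QKO libraries (log2 0.47, limma adjusted p = 0.00835). The median of all genes was 0.22 higher in that comparison, and with median-ratio scaling the Max difference was 0.23 (adjusted p = 0.0538). It also missed the threshold without QKO replicate 2 (adjusted p = 0.118) or Dux-KO QKO replicate 2 (0.0521). Markers of other cell types differed in the same comparison. Trophoblast markers summed to 155 and 156 TPM in Dux-KO QKO, against 71.8 and 60.8 TPM in QKO, and primitive endoderm markers to 1425 and 1396 TPM, against 604 and 464 TPM. Their part in the Max difference was not tested. Pcgf6 had 36.3 and 43.5 TPM in Dux-KO QKO and 42.3 and 42.4 TPM in QKO, which overlap (log2 -0.09, 95% confidence interval -0.36 to 0.18).

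Doxycycline, which switches on the Dux transgene, gave no passing difference in the 40 comparisons of 5 members in 8 lines by limma, where 0.94% of all gene comparisons passed. At an unadjusted p below 0.05 there were 2 of 40. The share of all genes at that unadjusted threshold was not counted, so no result is read from this count. The lowest adjusted p was 0.0693, for E2f6 in G9a;Setdb1-DKO, with 11.2 and 14.3 TPM with doxycycline and 16.8 and 20.5 TPM without it (log2 -0.52). Both treated libraries lay below the untreated ones. Responses were also compared between lines, 5 lines of dose label 1 each against Suv39h1/2-DKO and Setdb1-KO against control. Members passed in 0 of these 30 comparisons by limma, where 0.00482% of all gene comparisons passed. Averaged over those 6 lines, Max had 70.2 TPM with doxycycline (lowest 44.4, median 70.6, highest 95.02) and 84.2 TPM without it (lowest 52.9, median 81.3, highest 122), a log2 difference of -0.25 (adjusted p = 0.0300). E2f6 had 14.8 TPM with it (lowest 11.2, median 14.7, highest 19.3) and 16.9 TPM without it (lowest 12.9, median 16.8, highest 21.5), a difference of -0.19 (adjusted p = 0.0425). The ranges overlapped, and 19.9% of all genes passed in this comparison, 17.2% lower. The median of all genes was -0.09, and neither member passed with median-ratio scaling (-0.13, adjusted p = 0.140, and -0.08, adjusted p = 0.517). With 1 of the 24 libraries left out, the call was lost in 11 fits for Max (adjusted p up to 0.0725) and in 19 for E2f6 (up to 0.0890).

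**Figure D5:**
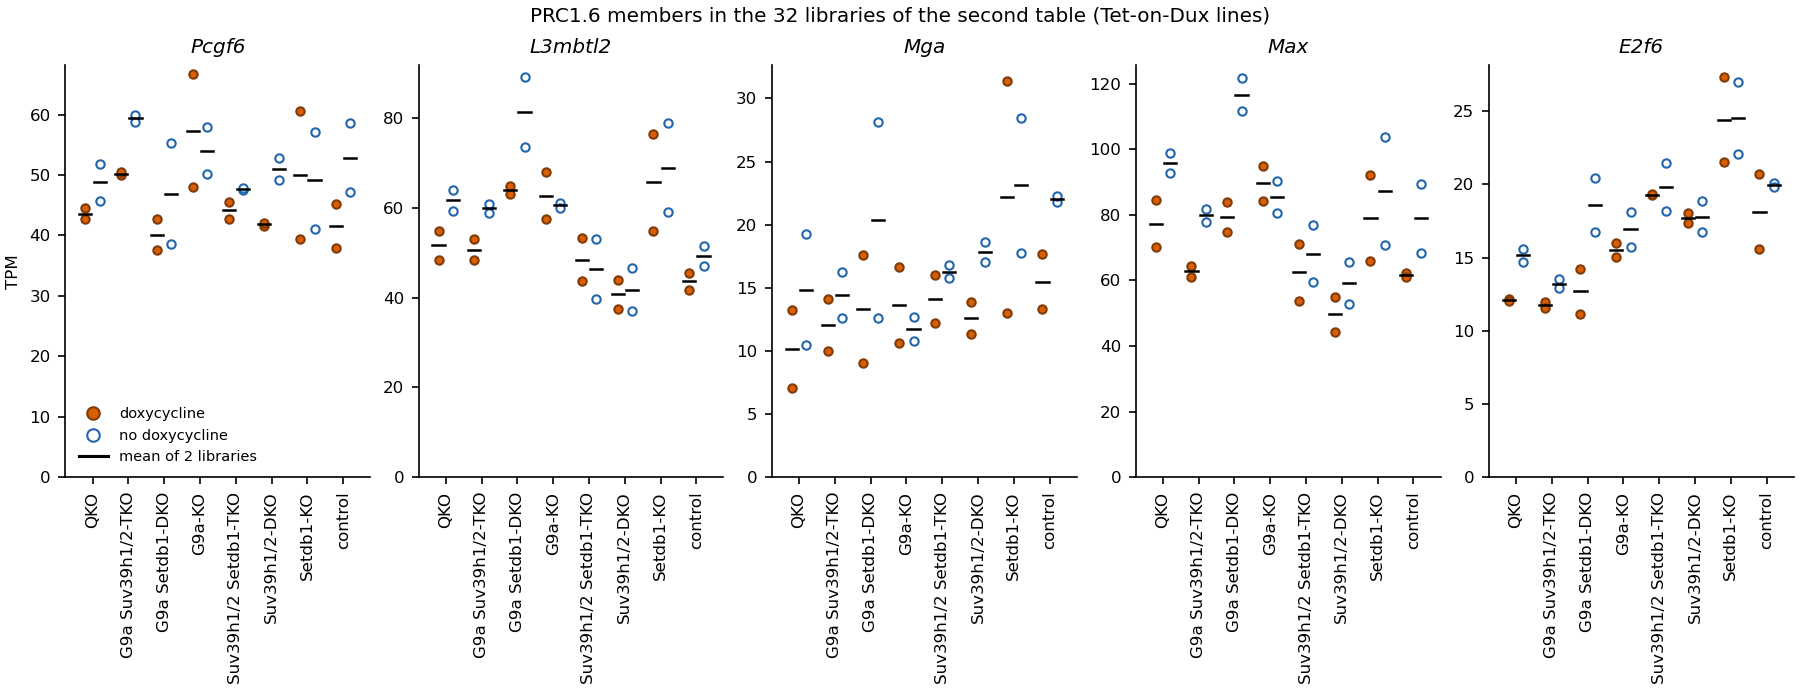
TPM of the 5 members in each library of the second table, with and without doxycycline in 8 lines. Points are single libraries and horizontal lines means of 2; Mga replicates lie farthest apart, as in Setdb1-KO with doxycycline (13.01 and 31.4 TPM).

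Other genes of the complex and its families were read from lists. On averaged Setdb1 loss in the first table, 2 of 10 PRC1.6 partner genes passed higher and 5 lower (median log2 -0.18, against -0.07 over all genes). Over all genes 24.8% rose and 35.8% fell in this comparison. Tfdp1, which encodes the DP partner of E2F6, had 182 TPM without Setdb1 and 264 TPM with it (log2 -0.55), and Rybp, Rnf2, Cbx3 and Tfdp2 also fell. Hdac1 and Ring1 rose, by 0.22 and 0.19. Of the 7 other E2f genes 6 fell and 0 rose, with E2f8 at 36.8 TPM without Setdb1 and 74.1 TPM with it (-1.02). Of 5 other Pcgf genes 1 rose and 1 fell. The same loss in the second table passed for 1 partner gene higher and 1 lower, and for 1 other E2f gene, lower, where 15.7% of all genes rose and 12.6% fell.

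The Myc network list holds dimer partners of MAX and also Mlx and Mlxip, which are not among the MAX partners named above. Both fell on averaged G9a loss in the first table (log2 -0.58 and -0.24), so the counts are not of MAX partners alone. On averaged G9a loss 4 of 10 Myc network genes of the first table rose and 4 fell, where 30.5% of all genes rose and 23.8% fell, and Mycn, which encodes a MAX partner, had 86.8 TPM without G9a and 35.1 TPM with it (log2 1.34). On Dux removal from QKO cells, where Max itself was higher, 7 of the 10 rose and 0 fell (median 0.52, against 0.22 over all genes, of which 34.5% rose). Among other MBT genes, of which 4 of 6 were tested, L3mbtl3 had 14.9 TPM without Setdb1 and 6.12 TPM with it (1.10), and Sfmbt2 had 14.1 TPM without G9a and 1.52 TPM with it (2.44).

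Germline genes that PRC1.6 is known to bind were mostly higher without Setdb1. Of 32 listed, 27 were tested, and 23 rose and 3 fell on averaged Setdb1 loss in the first table (median log2 1.41, against -0.07 over all genes). Of these 17 rose and 1 fell by 2-fold or more, as 5.14% of all genes changed. In the second table, where 15.7% of all genes rose and 12.6% fell, the germline counts were 21 and 3 (median 1.19, against 0.03). On averaged G9a loss 10 rose and 12 fell in the first table (median -0.02), where 30.5% of all genes rose and 23.8% fell. On Suv39h1/2 loss 9 rose and 2 fell, where 9.1% of all genes rose and 8.29% fell. The list was chosen with results of these data known and is not independent evidence of its direction.

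The named germline genes divided by enzyme. Stk31, which encodes a testis kinase, had 68.9 and 85.0 TPM in Setdb1-KO, 8.38 and 10.1 TPM in G9a-KO and 96.6 and 127 TPM in QKO, against 6.77 and 7.43 TPM in control. Slc25a31, a testis ADP/ATP carrier, had 11.97 and 13.4 TPM in Setdb1-KO, 2.75 and 3.396 TPM in G9a-KO and 18.1 and 18.7 TPM in QKO, against 1.09 and 1.10 TPM in control. Both had their higher levels where Setdb1 was lost. Rpl10l, a retrogene for a ribosomal protein that is used in testis, had 73.9 and 65.6 TPM in Setdb1-KO, 248 and 239 TPM in G9a-KO and 285 and 286 TPM in QKO, against 25.4 and 26.1 TPM in control. Asz1, of the piRNA pathway, had 0.215 and 0.360 TPM in Setdb1-KO, 16.5 and 18.03 TPM in G9a-KO and 15.98 and 19.1 TPM in QKO, against 0.0968 and 0.0784 TPM in control. Both had their higher levels where G9a was lost. Tex101, a germ cell surface protein, had 81.1 and 78.1 TPM in Setdb1-KO and 16.5 and 15.2 TPM in QKO, against 0.890 and 0.877 TPM in control. Stra8, a factor of meiotic entry, went against the rest, with 25.7 and 20.6 TPM in QKO and 330 and 345 TPM in control. The log2 differences of QKO cells against control were 4.08 for Asz1, 3.79 for Stk31, 3.42 for Rpl10l, 3.21 for Slc25a31 and -3.82 for Stra8. These genes were named for the size of their change, which is therefore a description.

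The germline genes were also divided by their promoter letters. On averaged Setdb1 loss there, in the first table, 16 of 18 with CACGTG or TTCCCGC in the window rose and 2 fell (median log2 1.44), and of 7 without either 5 rose and 1 fell (median 1.62). Of the second table's values, 14 of 18 with the letters rose and 2 fell (median 1.24), and 5 of 7 without rose and 1 fell (median 0.89). Genes with and without the searched letters thus both had positive medians.

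Across group means the members did not follow a common pattern. Max and L3mbtl2 were the most alike pair, with a Pearson r of 0.60 over 9 group means of the first table and 0.91 over 16 of the second. By likeness to L3mbtl2, Max stood below 1903 of 13416 genes in the first table and below 86 in the second, L3mbtl2 itself counted. E2f6 and Mga had an r of -0.79 in the first and 0.80 in the second. Among 13416 genes measured in both tables, the gene most like each member by the smaller of its 2 correlations was Trim27 for Pcgf6 (0.83 and 0.86), Snapc4 for L3mbtl2 (0.91 and 0.89), Rictor for Mga (0.95 and 0.95), Txnl4a for Max (0.92 and 0.95) and Aebp1 for E2f6 (0.88 and 0.89). None of the 5 had another member as its closest gene. The points share libraries, scaling and, in the second table, the Snhg classes, so these values are a description.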

How the data were processed

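Per the labels, mouse ES cell RNA (AllPrep kit) was made into TruSeq stranded mRNA libraries and sequenced in pairs. The authors deposited TPM per gene, in tables of 18 and 32 columns. Per the submitters' processing notes, mm10 was used with RSEM 1.3.1, SAMtools 1.9, Bowtie2 2.3.4.1 and STAR 2.7.10b. What each tool did, the annotation and the use of strand are not stated by these sources. TPM hold no read depth, so the depth is unknown and no counting interval is given. Genes at 1 TPM or more numbered 11855 to 13274 per library in the first table and 11742 to 12690 in the second.

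Tests covered 13862 and 13817 genes that reached 1 TPM in 2 or more libraries, on log2(TPM+1), a scale that understates changes of low genes. The groups of either table entered a model of their own in limma 3.58.1 (R 4.3.3, with data.table version 1.17.8), with a variance trend and no covariates (9 and 16 residual degrees of freedom). Benjamini-Hochberg adjustment was made within each comparison, across all genes. The rows of the Dux transgene and the MERVL reporter were left out. An averaged loss is the mean of the 4 differences between backgrounds that differ in that enzyme. An interaction is a difference of differences. Figures were drawn with matplotlib 3.10.9 under Python 3.11.15, and the fit was tested on simulated data. Alternatives were a pseudocount of 0.1, no filter, median-ratio scaling, a replicate block and leaving out each library. In the second table, libraries whose mean log2 Snhg level exceeded 4 were also left out.

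The members and gene lists were chosen with earlier results of these data known. The text names the 5 members in every comparison and, of other lists, called genes of the averaged losses (up to 4 a list) and the most changed germline genes in each genotype and in QKO cells. Tfdp1, Rybp, Rnf2, Cbx3, Tfdp2, Hdac1 and Ring1 were named after their values were seen. Like genes were ranked by the smaller of the correlations over group means in the 2 tables.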

Additional observations from a re-analysis of the deposited data

Results flagged for a closer look

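Of the member results, 2 differed between groups by a test of the difference itself, both in the first table and both for the effect of Setdb1 loss in cells without G9a against cells with it. For Pcgf6 the difference of differences was -0.40 (limma, Benjamini-Hochberg adjusted p = 0.0330), with 42.4 TPM without Setdb1 and 73.6 TPM with it in cells without G9a, and 48.1 TPM without Setdb1 and 63.0 TPM with it in cells with G9a (n = 4 each). In either G9a state every library without Setdb1 lay below every library with it, and the share of all genes that did so was not counted. For E2f6 it was -0.53 (adjusted p = 0.00452), with 19.1 TPM without Setdb1 and 20.6 TPM with it in cells without G9a, and 27.6 TPM without Setdb1 and 20.3 TPM with it in cells with G9a. In the second table the same terms were -0.14 (adjusted p = 0.949) and -0.06 (adjusted p = 0.971). Groups of 2 libraries are too small for a check for outlying samples.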

How the results depend on the processing

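The 31 member differences followed here were those that passed as reported and a few printed ones that did not. Calls could be lost only among the former and gained only among the latter. The counts below therefore do not describe member differences in general. Over these 31, a pseudocount of 0.1 changed no direction and no side of the threshold, and dropping the filter ended 3 passing calls. Median-ratio scaling ended 6 and added 3. Of 380 fits that left out 1 library, 275 kept the side of the threshold, 99 lost it, 6 gained it and 0 turned the sign. No label says that a replicate number marks a shared batch or culture, and the correlations of replicate differences between groups did not all exceed 0.1. They had a lowest value of -0.0585, a median of 0.268 and a highest of 0.622 in the first table (25 of 36 over 0.1), and -0.647, 0.124 and 0.748 in the second (66 of 120). The numbers were therefore not used as pairs, although most group pairs correlated above 0.1 and a shared replicate effect may be present. With a replicate block, 3 differences of the 31 passed in addition and none was lost. The causes of these changes were not tested.

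The 6 passing member comparisons against control in the first table became 10 with the mean of long transcripts as a covariate, chosen after seeing the data, and 2 to 8 with 1 library left out, the fewest without control replicate 1. For Dux removal 1 passed, 2 with that covariate and 0 to 2 with 1 library left out; with median-ratio scaling 1 passed, which was not Max. The 4 averaged differences of the first table became 2 to 5 with 1 library left out. In the second table the 3 against control became 8 with median-ratio scaling, 5 with a replicate block, 8 with the long-transcript covariate and 8 with the Snhg class as a term, also chosen after seeing the data. They became 1 to 3 with 1 library left out, and the 7 averaged differences 4 to 8. The 0 doxycycline comparisons became 2 with a replicate block, 2 with the Snhg term and 1 with the long-transcript covariate, and were 0 in all fits with 1 library left out. The sign turned for 1 result, Mga on averaged G9a loss in the first table, which was -0.28 with the long-transcript covariate and 0.17 without it. TPM give no depth, and 2 libraries a group limit the precision.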
